A study of Mus musculus with 19 samples.

Results

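The comparison described here sets mouse embryonic fibroblasts (MEFs) transfected with 150 nM scrambled siRNA against the same cells transfected with 50 nM scrambled siRNA. The libraries were chosen by their labels, 5 at 150 nM and 4 at 50 nM, out of 19 in the series, and all 19716 genes of the deposited count table were considered. All 19 libraries came from a fibroblast line, labelled as derived from mouse embryo, in which Sec24d is knocked out, so the knockout is common to both doses. The study examined expression after further SEC24 paralogs were knocked down in these cells, and its other libraries are a triple knockdown of Sec24a, Sec24b and Sec24c (5 libraries) and a Sec24B knockdown (5 libraries). The scrambled libraries have no SEC24 target and are its controls. Every sample is labelled 48 h, whereas the protocol text places the medium change on the morning after transfection and RNA collection a day later. The transfection reagent was Lipofectamine RNAiMAX. The sources used here do not give the amount of reagent per dose, so the siRNA dose and any change of reagent with it cannot be told apart. They also do not give the scrambled sequence, the deleted part of Sec24d, whether the line is 1 clone, or whether replicates were separate cultures. The p-values therefore measure the spread between libraries, which may be technical. That spread was estimated within the groups of all 19 libraries, the knockdowns included. The library names carry sample-sheet numbers that run group by group, so any difference in handling between the groups and the dose cannot be told apart.

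A scrambled siRNA is a short double-stranded RNA with no intended target, used to separate the effect of losing a gene from the effect of transfecting RNA. Double-stranded RNA in cells can be bound by TLR3 in endosomes and by RIG-I (Ddx58), MDA5 (Ifih1), PKR (Eif2ak2) and the OAS proteins in the cytosol, and these sensors can lead to type I interferon. Interferon acts through STAT2 and IRF9, among others, on the interferon-stimulated response element, a DNA motif in the promoters of many antiviral genes. Short RNAs also occupy the Argonaute proteins and can lower unintended transcripts through partial pairing.

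The 150 nM libraries held 9101855 to 15719649 reads and the 50 nM libraries 12627947 to 19709672, recovered from the deposited values as described under the processing. In these libraries 1 read is worth 0.736 to 1.638 normalised counts. Markers of the labelled fibroblast type were abundant: Col1a1 averaged 165176 normalised counts at 150 nM and 184130.0 at 50 nM, and 11 of 12 fibroblast markers were among the genes tested. Transcripts of the knocked-out Sec24d were still counted. Sec24d had 485, 447, 501, 446 and 447 normalised counts at 150 nM, against 427, 447, 459.8 and 379 at 50 nM. The doses overlapped for Sec24d, and since the deleted part is not given, these counts do not check the knockout. Along the first principal component, which held 52.5% of the variance among the 9 libraries, the doses separated. On it 50 nM replicate 4 (loading 0.13) and 150 nM replicate 1 (loading -0.12) lay closest to the other dose. The other libraries had loadings of 0.37 to 0.47 at 50 nM and -0.39 to -0.27 at 150 nM. Along the second component, with 14.4%, 50 nM replicate 4 (loading 0.73) and 150 nM replicate 1 (loading -0.50) stood apart. Counts are given below without both where that moves them by more than 1.5 times.

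Of 19635 genes tested, 1737 differed between 150 and 50 nM at limma's Benjamini-Hochberg adjusted p of 0.05, which is 8.85%. These genes are called below those that passed, and 81 genes that reached 1 normalised count in fewer than 4 libraries were not tested. At 150 nM 932 genes were higher (4.75%) and 805 lower (4.1%). These shares are the background of every list count below. They cover all genes tested, those of few counts included, and are not matched to the level of the list members. Most differences were small: 1095 of the 1737 were under 0.5 on the log2 scale, while 115 were higher and 135 lower by at least 1. The log2 difference is that of the normalised count plus 1, which understates the change of genes with few counts, and the ± after it is a standard error. The libraries of the doses did not overlap for 1385 of the genes that passed, against 2496 (12.7%) of all genes tested. The median difference over all genes was -0.0039, and 4522 genes had an unadjusted p below the same threshold. The number that passed was 899 without 50 nM replicate 1, 919 without 50 nM replicate 2, 1042 without 50 nM replicate 3 and 1137 without 150 nM replicate 3. It was 2445 without both libraries that stood apart on the second component. RNA from a whole dish does not tell fewer cells of a kind apart from less RNA per cell.

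**Figure D1:**
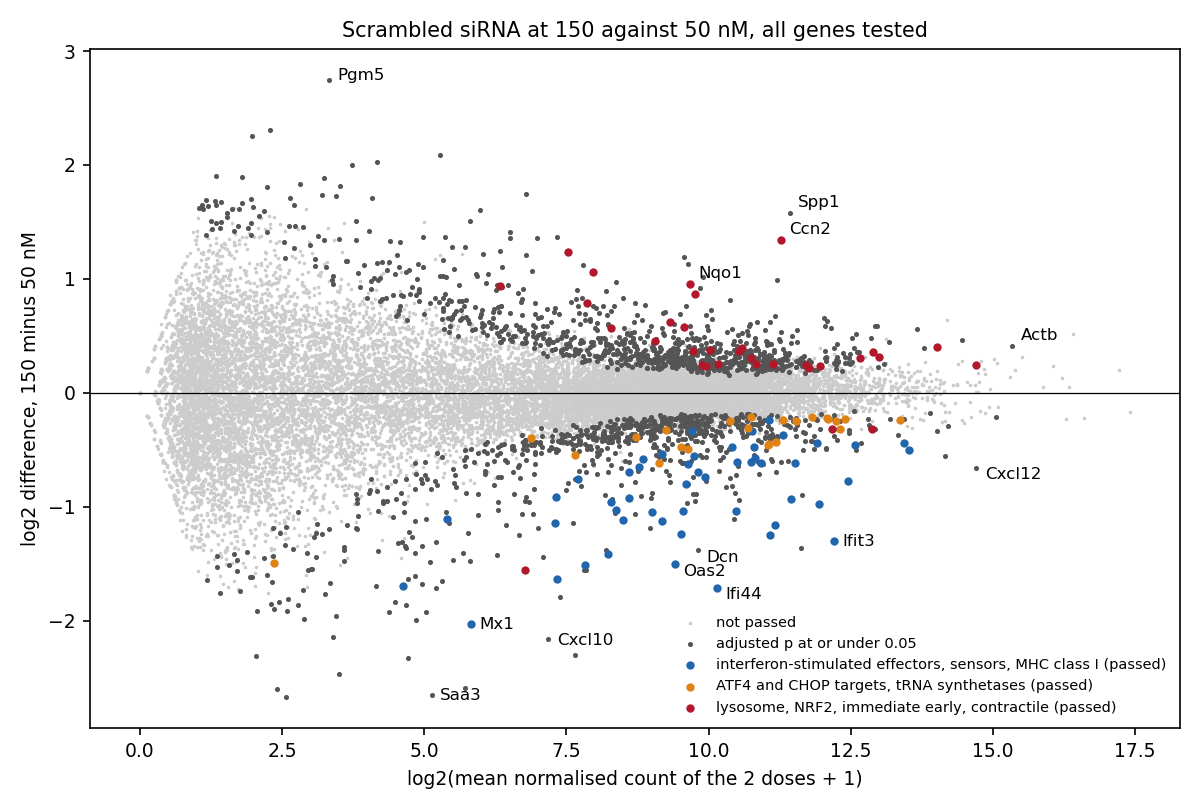
Each point is 1 of the 19635 genes tested, placed by its mean level over the scrambled doses (horizontal axis, log2 of the normalised count plus 1) and its log2 difference, 150 minus 50 nM (vertical axis). Dark points passed an adjusted p of 0.05, and coloured points are members of the named lists that passed. All 33 interferon-stimulated effectors that passed lie below 0.

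Antiviral effectors were lower at the higher dose. Of 37 interferon-stimulated effectors tested, 33 were lower at 150 nM, none was higher, and the remaining 4 (Ifit1bl1, Isg20, Ifitm3 and Lgals3bp) had differences of -0.16, -0.31, -0.29 and -0.25 that did not pass. The median over the list was -0.91, against -0.0039 over all genes tested, and the share lower stood beside 4.1% of all genes. The libraries of the doses did not overlap for 34 of the 37. The summed level of the list was 50628 to 57747 normalised counts at 150 nM and 82354 to 87700 at 50 nM. The lower count ran between 32 and 36 under every alternative, and it was 32 without both libraries that stood apart. Several members are near copies of each other (the Oas1, Ifit and Gbp genes), and how reads shared between them were counted is not given.

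Oas2 (ENSMUSG00000032690, chromosome 5, 120730333 to 120749853, minus strand, GRCm38), a synthetase that makes the activator of RNase L when it binds double-stranded RNA, had 311, 406, 426, 315 and 319.9 normalised counts at 150 nM. At 50 nM Oas2 had 966, 970.0, 1066 and 1009.7. The highest 150 nM library was below every 50 nM library, and Oas2 averaged 356 ± 55.8 at 150 nM and 1003 ± 46.3 at 50 nM (SD, n = 5 and 4, as throughout). The log2 difference was -1.51 ± 0.10, with limma's adjusted p of 3.59e-09, the smallest of all genes. Ifi44 (chromosome 3, 151730922 to 151749960), an interferon-induced protein with a GTP-binding fold, had 515, 537, 608, 514 and 469.8 at 150 nM, against 1859, 1727, 1843 and 1499 at 50 nM. Again no library of 1 dose reached the other, and the difference was -1.71 ± 0.13 (limma adjusted p = 1.6e-08). Mx1 (chromosome 16, 97447035 to 97462907), a dynamin-like GTPase that blocks viral ribonucleoproteins, had the largest difference of the list at -2.03 ± 0.23, at 21.9 ± 6.31 counts with 150 nM and 89.5 ± 4.2 with 50 nM. Its 150 nM libraries lay between 15.2 and 29.8 and its 50 nM libraries between 84.8 and 94.9.

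Among the abundant members, Ifit3, which binds viral RNA with its relatives, had 2352, 3073, 2709, 2729 and 2789 normalised counts at 150 nM, against 6567, 6504, 6846 and 6829.6 at 50 nM. The groups lay far apart, with a log2 difference of -1.30 ± 0.18 (limma adjusted p = 2.17e-05). Isg15, a ubiquitin-like modifier, averaged 2641 ± 284 at 150 nM and 5213 ± 628 at 50 nM. Oasl2, an OAS relative, averaged 1930.1 ± 126 at 150 nM and 3680.0 ± 81.8 at 50 nM, a difference of -0.93 ± 0.08. Rsad2 (viperin), which makes a chain-terminating nucleotide, averaged 77.6 ± 10.3 at 150 nM and 241 ± 13.3 at 50 nM (-1.63 ± 0.14). Ly6e, an interferon-inducible membrane protein outside the list, had 13742, 15579, 15939, 14239 and 14316 at 150 nM, against 20616, 20442, 21797 and 24211 at 50 nM. It was among the 5 genes with the largest fall in mean count, and its groups did not overlap (-0.56 ± 0.12, limma adjusted p = 0.00277). Iigp1, an immunity-related GTPase, was also far lower, at 67.6 ± 11.7 counts with 150 nM and 333 ± 29.97 with 50 nM (-2.30 ± 0.18, limma adjusted p = 1.6e-08).

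In a list of RNA sensors and related proteins most genes were lower as well. Of its 9 genes tested, 7 were lower at 150 nM and none higher, with a median of -0.56. The count was 7 under every alternative. Ddx58 (RIG-I; chromosome 4, 40203773 to 40239828), the sensor of RNA with a triphosphate end, had 1490.0, 1492, 1532, 1568 and 1536 normalised counts at 150 nM, against 2309, 2365, 2472 and 2185 at 50 nM. The 150 nM libraries kept within a narrow band well below the others (-0.61 ± 0.06, limma adjusted p = 2.31e-07). Tlr3, the endosomal receptor for double-stranded RNA, had 331, 252, 252, 244 and 253 at 150 nM, against 544, 528, 548 and 409.8 at 50 nM. The 150 nM library nearest to the other dose was replicate 1 and the 50 nM library nearest was replicate 4, yet the groups did not meet (-0.93 ± 0.11, limma adjusted p = 4.27e-06). Dhx58, which regulates the RIG-I pathway, averaged 335 ± 49.8 at 150 nM and 689 ± 22.4 at 50 nM (-1.05 ± 0.13). Zbp1, a sensor of left-handed double-stranded nucleic acid, was 439 ± 76.0 at 150 nM and 1026 ± 65.2 at 50 nM (-1.24 ± 0.15). Ifih1 (-0.56), Eif2ak2 (-0.37) and Adar (-0.24) were lower by less, and Prkra (-0.17) and Tlr7 (-0.09, at about 4 counts) did not pass.

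In the signalling chain between the sensors and these genes, a minority of members were lower. Of 18 genes tested, 6 were lower (Irf7, Usp18, Stat2, Irf1 and Irf9 among them) and none was higher, beside 4.1% lower of all genes tested. The median was -0.11. Stat2, a subunit of the interferon-activated transcription factor, averaged 4085 ± 187 at 150 nM and 5313 ± 219 at 50 nM (-0.38 ± 0.06). Irf7, which amplifies interferon production, averaged 1079 ± 122 at 150 nM and 1777 ± 146 at 50 nM (-0.72 ± 0.13), and Usp18, which restrains the receptor, averaged 1550.1 ± 68.6 at 150 nM and 2399 ± 249 at 50 nM (-0.63 ± 0.11). The adaptor Mavs (0.13), the kinases Tbk1 (-0.02) and Jak1 (-0.11), the factor Irf3 (0.03) and the receptor subunit Ifnar1 (-0.10) had differences that did not pass. Ifnb1, the gene of interferon beta, rested on a few reads, with 2.88, 0, 0, 3.79 and 0 normalised counts at 150 nM, against 5.43, 4.42, 4.72 and 4.72 at 50 nM. The groups of Ifnb1 did not overlap, and its adjusted p of 0.0608 (limma) missed the threshold.

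Genes of antigen presentation, which interferon is known to raise, were mostly lower. Of 12 genes of MHC class I and peptide loading, 10 were lower at 150 nM and none higher, with a median of -0.60, and 8 were lower without both libraries that stood apart. H2-K1 (chromosome 17, 33996017 to 34000347), a class I heavy chain, had 760.4, 1148, 1151, 892 and 748 normalised counts at 150 nM, against 1835, 1619, 1850.1 and 2370.2 at 50 nM. Its libraries varied more within a dose than those of the sensors but did not overlap (-1.04 ± 0.17, limma adjusted p = 0.000266). H2-K1 and H2-D1 (4140.4 ± 633 at 150 nM and 7066 ± 1011 at 50 nM) are close in sequence, so reads may be shared between them. B2m (chromosome 2, 122147686 to 122153083), the invariant light chain, had 10217, 9454, 9531, 9655 and 9698 at 150 nM, against 14306, 13854, 13588 and 13235 at 50 nM. All 150 nM libraries were below all 50 nM libraries (-0.50 ± 0.09, limma adjusted p = 0.000581). Tap1, a subunit of the peptide transporter, differed by -0.57 ± 0.09, Nlrc5, the transcriptional activator of class I genes, by -0.58 ± 0.08, and the immunoproteasome subunit Psmb9 by -1.10 ± 0.20. Psmb8 (4.72 ± 2.98 at 150 nM and 10.4 ± 4.47 at 50 nM) and Tapbpl (-0.31) did not pass.

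Several chemokines were lower at 150 nM, and 3 NF-kB targets were higher. Of 24 genes of the chemokine and NF-kB list, 7 were lower, 3 higher and 14 did not pass, with a median of -0.14. Cxcl12 (chromosome 6, 117168535 to 117181367), the ligand of CXCR4, had the largest fall in mean count among the genes that passed, with 21276, 20804, 20370.5, 20676 and 20469 normalised counts at 150 nM, against 32149, 34089.9, 32843 and 31666 at 50 nM. The spread within each dose was small next to the gap between them (-0.66 ± 0.06, limma adjusted p = 2.72e-07). Cxcl10 (chromosome 5, 92346638 to 92348889), the interferon-inducible ligand of CXCR3, had 43.3, 70.4, 46.3, 52.1 and 49.4 at 150 nM, against 246, 207, 226 and 263 at 50 nM. Cxcl10 showed 1 of the 10 largest falls by the rule given under the processing, which takes only genes without overlap (-2.17 ± 0.21, limma adjusted p = 3.94e-07). Cxcl1 averaged 989 ± 90.2 at 150 nM and 1662 ± 140.3 at 50 nM (-0.75 ± 0.10). Ccl5 (-1.19), Ccl7 (-0.60), Ccl2 (-0.42) and the adhesion molecule Vcam1 (-0.38) were also lower. Tnfaip2 (0.56), Nfkbiz (0.53) and Lif (0.26), all described as NF-kB targets, were higher, and Lif lost its call with the replicate block and without any of 50 nM replicates 1 to 3 and 150 nM replicates 2 and 3. Nfkbia (-0.13), Tnfaip3 (0.08), Il6 (0.06) and Ptgs2 (0.05) did not pass. Saa3, an acute-phase protein outside the list, had the largest fall among the named genes, with 9.01 ± 3.40 counts at 150 nM and 58.9 ± 6.16 at 50 nM (-2.65 ± 0.40, limma adjusted p = 8.54e-05).

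**Figure D2:**
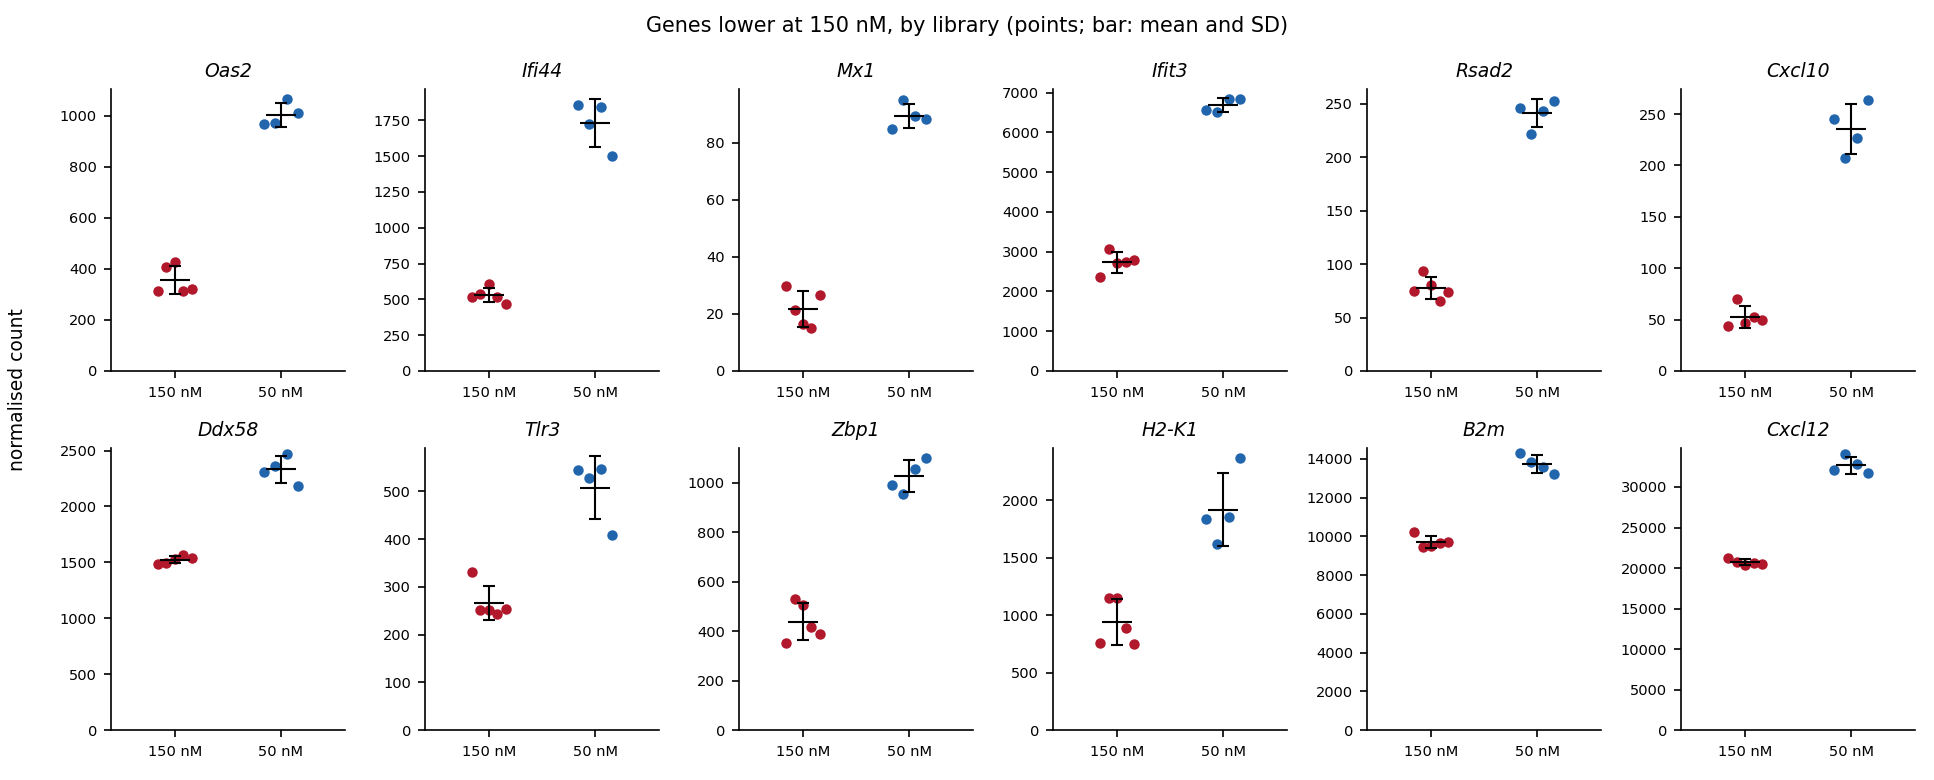
Normalised count (vertical axes, from 0) of 12 genes in each of the 5 libraries at 150 nM (red) and the 4 at 50 nM (blue); the black bar is the mean with its SD. For each of the 12 genes every 150 nM library lies below every 50 nM library.

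Promoter stretches of 10 genes that were lower are shown, because 15 of the 30 effectors with a known promoter window hold one motif. The core of the interferon-stimulated response element was searched as GAAANNGAAA, with N any base, on both strands of the RefSeq windows (GRCm38.p6) from 250 bases before to 50 bases after each gene's start. Of 37 effectors, 30 had a window, and 15 of them (50.0%) held the motif in at least 1 window. The effectors were listed as interferon-stimulated genes, so their share does not bear on the dose. Of all 32851 windows, each counted by itself, 3.44% held the motif. Over all genes, 74 of the 583 lower genes with a window (12.7%) held it, 19 of the 717 higher genes (2.65%), and 460 of all 12455 tested genes with a window (3.69%). Among genes lower by at least 1 log2 unit the share was 25 of 82 (30.5%). These shares describe letters in a window, and a match is not a binding site. The stretches below are printed 5′ to 3′ on the gene's strand in lower case, with the motif, or its reverse complement, in capitals. The matches of Isg15 and of Gbp3 overlap each other.
Ifit1 (chr19:34640765-34640833, plus strand): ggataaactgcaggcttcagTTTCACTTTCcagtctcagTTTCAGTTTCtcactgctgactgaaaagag
Ifit3 (chr19:34583353-34583436, plus strand): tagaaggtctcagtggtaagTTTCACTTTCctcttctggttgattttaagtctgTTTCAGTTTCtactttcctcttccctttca
Isg15 (chr4:156200855-156200916, minus strand): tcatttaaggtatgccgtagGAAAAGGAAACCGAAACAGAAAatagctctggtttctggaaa
Oas3 (chr5:120777705-120777754, minus strand): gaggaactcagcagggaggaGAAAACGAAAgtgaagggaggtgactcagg
Rsad2 (chr12:26456543-26456592, minus strand): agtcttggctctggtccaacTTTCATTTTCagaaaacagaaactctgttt
Gbp3 (chr3:142559979-142560034, plus strand): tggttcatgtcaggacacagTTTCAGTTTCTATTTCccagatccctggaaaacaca
Cxcl10 (chr5:92349073-92349122, minus strand): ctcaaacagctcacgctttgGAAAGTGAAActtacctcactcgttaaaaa
B2m (chr2:122147528-122147577, plus strand): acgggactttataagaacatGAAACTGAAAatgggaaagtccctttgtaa
Ddx58 (chr4:40239794-40239843, minus strand): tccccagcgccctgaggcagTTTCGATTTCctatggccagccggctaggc
Stat2 (chr10:128270256-128270305, plus strand): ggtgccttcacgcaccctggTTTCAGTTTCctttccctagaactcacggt

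The matches began 104 and 85 bases before the annotated start in Ifit1, 156 and 122 before it in Ifit3, between 78 and 66 before it in Isg15, and at the third base after it in Ddx58. Ifi44 and Oasl2 have windows without these letters and differed by -1.71 and -0.93. The windows of Oas3 (118 ± 18.8 normalised counts at 150 nM and 336 ± 28.7 at 50 nM) and Gbp3 (492 ± 24.8 at 150 nM and 1009 ± 34.0 at 50 nM) hold the motif, and these genes differed by -1.51 and -1.04. Stat2, with its match 222 bases before the start, differed by -0.38.

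The amino acid response, in which the transcription factor ATF4 raises enzymes and transporters that supply amino acids, was in part lower at 150 nM. Of 30 ATF4 and CHOP targets tested, 16 were lower, none was higher and 14 did not pass, with a median of -0.24. The count was 10 without 50 nM replicate 1, 15 without both libraries that stood apart, and at most 17. Chac1 (chromosome 2, 119351229 to 119354381), an enzyme that breaks down glutathione, had 417, 499.6, 487, 382 and 419.5 normalised counts at 150 nM, against 630.2, 671, 637 and 764 at 50 nM. The groups of Chac1 did not overlap (-0.62 ± 0.09, limma adjusted p = 5.18e-05). Gpt2, the mitochondrial alanine aminotransferase, had 618, 655, 668, 501 and 614 at 150 nM, against 895, 877, 791 and 831 at 50 nM. Gpt2 likewise separated the doses (-0.48 ± 0.07, limma adjusted p = 6.25e-05). Asns, asparagine synthetase, averaged 1804 ± 149.8 at 150 nM and 2462 ± 96.1 at 50 nM (-0.45 ± 0.07), the serine synthesis enzyme Psat1 averaged 4541 ± 175 and 5676 ± 220.3 at 150 and 50 nM (-0.32 ± 0.05), and the pseudokinase Trib3 differed by -0.49 ± 0.10. Atf4 itself (-0.17 ± 0.07, limma adjusted p = 0.128) and Ddit3, which encodes CHOP (-0.22 ± 0.16), did not pass.

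Of the aminoacyl-tRNA synthetases, which load tRNAs and are ATF4 targets in part, about as many were lower as did not pass. Of 13 tested, 7 were lower (Cars, Eprs, Gars, Iars, Lars, Nars and Tars), with differences between -0.25 and -0.21, none was higher, and the median was -0.21. Tars averaged 4445 ± 185 at 150 nM and 5273 ± 141 at 50 nM (-0.25 ± 0.06, limma adjusted p = 0.0101). Lars averaged 2318 ± 58.9 at 150 nM and 2728 ± 58.4 at 50 nM (-0.24 ± 0.05). The count of lower synthetases depended on single libraries, at 2 without 50 nM replicate 2, and at 3 without 50 nM replicate 1, 50 nM replicate 3 or 150 nM replicate 5. It was 4 without 150 nM replicate 3 or 150 nM replicate 4. Cars lay close to the threshold and lost its call in 15 of 21 alternatives, including a pseudocount of 0.1, TMM, upper quartile, the replicate block, edgeR and voom. Of 24 ER chaperone and unfolded protein response genes, Herpud1 (-0.48 ± 0.08) and Dnajb9 (-0.42 ± 0.13) were lower and Hyou1 (0.23 ± 0.06) higher, beside 4.1% lower and 4.75% higher of all genes tested. The chaperones Hspa5 (0.04) and Hsp90b1 (0.02) did not pass. Dnajb9 lost its call in 8 of 21 alternatives (with a pseudocount of 5, and without any of 50 nM replicates 1 to 3 and 150 nM replicates 2 to 5), and Hyou1 without 50 nM replicate 1 or 2.

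The ATF4 binding motif, the C/EBP-ATF response element, was searched as TGATGCAA on both strands of the same windows. It was present in 6 of the 27 ATF4 and CHOP targets with a window (22.2%) and in 4 of 8 synthetases (50.0%). The share was 103 of all 12455 tested genes with a window (0.827%), and 0.895% of all windows. Both lists hold ATF4 targets, so their shares do not bear on the dose. The motif was also present in 14 of the 583 lower genes (2.4%) and in 6 of the 717 higher genes (0.837%). The stretches around it in a glutathione enzyme, a proline synthesis enzyme and the threonyl-tRNA synthetase are shown with the motif, or its reverse complement, in capitals.
Chac1 (chr2:119351029-119351076, plus strand): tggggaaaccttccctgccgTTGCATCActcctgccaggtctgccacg
Pycr1 (chr11:120643824-120643871, minus strand): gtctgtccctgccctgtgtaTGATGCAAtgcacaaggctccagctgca
Tars (chr15:11399646-11399693, minus strand): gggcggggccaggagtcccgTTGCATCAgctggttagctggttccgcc

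The motif began 193 bases before the start in Chac1, 103 before it in Pycr1 and 15 before it in Tars. Pycr1 averaged 164 ± 33.3 normalised counts at 150 nM and 235 ± 2.78 at 50 nM, a difference of -0.54 ± 0.12. Trib3, Asns, Gpt2 and Psat1 were lower as well, and their windows do not hold these letters.

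Other lower groups were more limited. Of 26 genes of cholesterol synthesis and uptake, 7 were lower (Hmgcs1, Idi1, Sqle, Cyp51, Msmo1, Nsdhl and Sc5d), all enzymes of the pathway, and 1 was higher, with a median of -0.08. Cyp51, which demethylates lanosterol, averaged 2043 ± 79.2 normalised counts at 150 nM and 2650.2 ± 92.3 at 50 nM (-0.38 ± 0.08, limma adjusted p = 0.00255). The master regulator Srebf2 (-0.06) did not pass. The count of lower members was 4 without 50 nM replicate 2. Of 15 fatty acid synthesis genes, the desaturase Scd2 (8948 ± 539 at 150 nM and 11568 ± 616 at 50 nM, -0.37 ± 0.07) and Acsl3 (-0.29 ± 0.08) were lower, beside 4.1% of all genes tested. Acsl3 lost its call without any of 50 nM replicates 1 to 3 and 150 nM replicates 2, 4 and 5. No member was called higher, against 2 without both libraries that stood apart and 1 without 50 nM replicate 4.

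Of 20 p53 targets, 9 were lower, none was higher, and the median was -0.16. Mdm2, the ubiquitin ligase that restrains p53, had 6813, 6206, 6729.9, 6394 and 6577 normalised counts at 150 nM, against 8241, 8219, 8233 and 7765 at 50 nM. The groups of Mdm2 did not overlap (-0.31 ± 0.05, limma adjusted p = 0.00029). The death receptor Fas differed by -0.53 ± 0.12, whereas Cdkn1a (0.03), Bax (0.12) and Phlda3 (0.07) did not pass. The count was 4 without 50 nM replicate 1, 3 without 50 nM replicate 2, and 5 with the replicate block. Of 16 hypoxia targets, Ero1l (-0.42), Bnip3 (-0.35) and P4ha1 (-0.25) were lower, and Vegfa (-0.02) did not pass. Of 13 mitochondrially encoded genes, mt-Nd3 (-0.69), mt-Atp8 (-0.37), mt-Nd5 (-0.33) and mt-Co3 (-0.29) were lower, with a median of -0.29. A share of reads was taken over all genes with a symbol starting in mt-, a larger set than these 13. It was 1.58 ± 0.132% at 150 nM and 1.88 ± 0.158% at 50 nM. The exact permutation test, two-sided, gave p = 0.0317, and 0.127 after Benjamini-Hochberg adjustment over 4 library measures. The smallest p possible in that test is 0.0159. The mitochondrial count was 0 without 50 nM replicate 2, 1 without 50 nM replicate 1 or 3, 2 without 150 nM replicate 2 or 3, 7 without both libraries that stood apart and with DESeq2, and 8 in the 9 scrambled libraries alone. The call of mt-Co3 was lost in 10 of 21 alternatives, including pseudocounts of 0.1 and 5 and TMM.

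In the other direction, the genes higher at 150 nM were led, by adjusted p, by Spp1, Ier3, Gpc1 and Nqo1. Spp1 (osteopontin; chromosome 5, 104435118 to 104441050), a secreted integrin ligand, had 3677, 3645, 4595, 4446 and 4211 normalised counts at 150 nM, against 1180.0, 1258, 1495 and 1594 at 50 nM. Every 150 nM library was above every 50 nM library by a wide margin, 2.98-fold in the means (1.58 ± 0.16, limma adjusted p = 6.34e-07). Gpc1 (chromosome 1, 92831645 to 92860779), a heparan sulfate proteoglycan of the cell surface, had 2879, 3301, 3392, 3049 and 3034 at 150 nM, against 1455, 1515, 1465 and 1907 at 50 nM. The 50 nM library closest to the other dose was replicate 4, and there was no overlap (0.99 ± 0.10, limma adjusted p = 9.51e-07). Ccn2 (connective tissue growth factor) had 2901, 2668, 3698, 4609 and 3764 at 150 nM, against 1004, 1215, 1441 and 1969 at 50 nM. Ccn2 varied more within a dose than Spp1 or Gpc1, and its groups did not overlap (1.34 ± 0.17, limma adjusted p = 9.33e-06).

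Of 25 immediate early and serum response genes, 9 were higher, 1 was lower and 15 did not pass, with a median of 0.18. The count of higher members was between 7 and 11 under every alternative. Ier3 (chromosome 17, 35821684 to 35822923), an early response gene linked to survival, had 1124, 1016, 1169, 1158 and 1143 normalised counts at 150 nM, against 641, 576, 527 and 722 at 50 nM. The doses were clearly apart (0.87 ± 0.09, limma adjusted p = 9.19e-07). The nuclear receptor Nr4a1 averaged 257 ± 25.5 at 150 nM and 109.6 ± 17.5 at 50 nM (1.23 ± 0.16), the transcription factor Maff differed by 1.06 ± 0.14, Klf2 by 0.79 ± 0.10 and Fosl1 by 0.62 ± 0.09. Egr1 was the member that was lower, with 54.8, 49.1, 52.9, 48.3 and 67.4 at 150 nM, against 166, 143, 186 and 152 at 50 nM. Its groups did not overlap and it had 1 of the 5 smallest adjusted p-values among lower genes (-1.56 ± 0.13, limma adjusted p = 2.94e-08). The count of lower members was 2 without 150 nM replicate 1 or without both libraries that stood apart. Fos (-0.20), Junb (-0.19), Jun (0.18) and Myc (-0.05) did not pass.

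The largest rises in mean count among the genes that passed were in Actb and Actg1. Actb (chromosome 5, 142903115 to 142906754), cytoplasmic beta-actin, had 42228, 46511, 48715, 51789.8 and 47221 normalised counts at 150 nM, against 32889, 34211, 35171 and 39761 at 50 nM. The lowest 150 nM library was above the highest 50 nM library (0.41 ± 0.08, limma adjusted p = 0.00148). Actg1, cytoplasmic gamma-actin, averaged 25902 ± 2161 at 150 nM and 18841 ± 1945 at 50 nM (0.46 ± 0.08). Both have many processed copies in the genome, and the sources used here do not say how reads with more than 1 match were assigned. Of 20 actin and myosin contractile genes, 5 were higher (Tagln, Tagln2, Myl9, Actn4 and Lmod1), none was lower, and the median was 0.21. Myl9, the regulatory myosin light chain, averaged 105 ± 20.2 at 150 nM and 54.3 ± 10.4 at 50 nM (0.93 ± 0.17). The count was 9 without both libraries that stood apart, 8 with edgeR and with voom, 9 with the replicate block and with the stricter filter, and 11 with DESeq2 and in the 9 scrambled libraries alone. Of 20 TGF-beta ligands and targets, Tgfb1 (0.28), Id1 (0.59), Id2 (0.51) and Pmepa1 (0.25) were higher and Ltbp2 (-0.41) lower, beside 4.75% higher and 4.1% lower of all genes tested. The count of higher members was 2 without 50 nM replicate 2, 50 nM replicate 3 or 150 nM replicate 4. Pmepa1 lost its call in 8 of 21 alternatives, including upper quartile.

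Matrix genes went both ways. Of 29 matrix glycoproteins and proteoglycans, 4 were higher (Tnc, Thbs2, Thbs3 and Lamb1) and 3 were lower (Dcn, Fbln5 and Bgn), beside 4.75% higher and 4.1% lower of all genes tested. The median was 0.03. Dcn (decorin; chromosome 10, 97479609 to 97518143), a small proteoglycan that binds collagen and growth factors, had 567, 526, 426, 455 and 496 normalised counts at 150 nM, against 1565, 1442, 1172 and 1029 at 50 nM. Dcn fell well clear of the 50 nM range (-1.38 ± 0.17, limma adjusted p = 3.99e-06). Thbs2, a matricellular inhibitor of vessel growth, averaged 1222 ± 37.3 at 150 nM and 891 ± 44.5 at 50 nM (0.46 ± 0.09). Bgn (-0.21 ± 0.07), among the 5 largest falls in mean count, lost its call in 12 of 21 alternatives, which were those without any single library but 150 nM replicate 3, without both libraries that stood apart, with a pseudocount of 5, with TMM and with the replicate block. Of 20 matrix proteases and inhibitors, the aggrecan-cutting Adamts1 (2230.0 ± 72.1 at 150 nM and 4158 ± 150.0 at 50 nM, -0.90 ± 0.09), Adamts5 (-0.69 ± 0.08) and the procollagen protease Adamts2 (-0.59 ± 0.08) were lower. Among those higher were Plau (0.33 ± 0.08), an activator of the plasmin system, Adamts4 (0.47), and Mmp3, which had 1.64 to 2.85 counts at 150 nM and 0 in every 50 nM library. Mmp3 lost its call with the replicate block. Of 21 collagen chains, Col6a1 (-0.25), Col6a2 (-0.40) and Col5a2 (-0.18) were lower and Col7a1 (0.37) higher, and Col1a1 (-0.17) did not pass. Col5a2 lost its call in 10 of 21 alternatives, including a pseudocount of 5 and the replicate block. The count of higher collagens was 2 without both libraries that stood apart. The count of lower collagens was 1 without 50 nM replicate 1 and with the replicate block, and the count of higher glycoproteins was 2 without 50 nM replicate 1, 7 with the replicate block and 8 in the 9 scrambled libraries alone. The count of lower glycoproteins was 5 with the stricter filter and with voom and 6 with DESeq2.

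Several lysosomal hydrolases were higher. Of 26 lysosome genes, 10 were higher, 2 were lower (Lamp2 and Npc2, each at -0.32), and the median was 0.17. Neu1 (chromosome 17, 34931253 to 34935953), a sialidase, had 932, 952, 919.9, 891 and 859 normalised counts at 150 nM, against 579, 598, 601 and 664 at 50 nM. There was no overlap (0.58 ± 0.07, limma adjusted p = 2.84e-06). Ctsb, the cysteine protease cathepsin B, had 17880.2, 18865, 19073, 18861 and 19249 at 150 nM, against 13873, 13687, 14361 and 15126 at 50 nM. Ctsb was also among the 5 genes with the largest rise in mean count (0.40 ± 0.07, limma adjusted p = 0.000552). Gusb (0.36), Ctsl (0.36), Ctsz (0.30), Ctsa, Gla and Psap were also higher, while Lamp1 (0.02) and the regulator Mcoln1 (0.17) did not pass. The count of higher members was 5 without 50 nM replicate 1 or 3, 6 without 50 nM replicate 2 or 150 nM replicate 2, and 11 without both libraries that stood apart. Npc2 lost its call without any single library but 150 nM replicate 1, and without both that stood apart. Gla lost its call in 10 of 21 alternatives, including the replicate block and voom, and Ctsa and Psap in 7 each.

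Targets of NRF2, the factor that responds to oxidants, and glycolytic enzymes were higher in part. Nqo1 (chromosome 8, 107388225 to 107403206), a quinone reductase, had 1090.1, 1042, 1017, 1086 and 1159 normalised counts at 150 nM, against 576, 548, 550.1 and 544 at 50 nM. It was 1.94-fold higher in the means, with little spread in either group (0.96 ± 0.10, limma adjusted p = 1.1e-06). In the NRF2 list of 19, Nqo1, Srxn1 (0.37), Taldo1 (0.25), Tkt (0.23) and Pgd (0.22) were higher, none was lower, and Hmox1 (-0.09), Gclc (0.16) and Nfe2l2 itself (0.14) did not pass. The median was 0.16, and the count was 2 without 50 nM replicate 1, 2 or 3, 3 without 150 nM replicate 2, and 8 with the stricter filter, with DESeq2 and in the 9 scrambled libraries alone. Of 15 glycolysis genes, Hk2, Pfkp (0.29) and Gpi1 (0.19) were higher, with a median of 0.19. Hk2, hexokinase 2, averaged 1932 ± 50.4 at 150 nM and 1358 ± 68.2 at 50 nM (0.51 ± 0.06, limma adjusted p = 8.46e-06). The glycolysis count was 10 without both libraries that stood apart, 8 without 50 nM replicate 4, 5 with DESeq2 and 1 without 50 nM replicate 3. Gpi1 lost its call in 7 of 21 alternatives, including the replicate block.

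Genes of mitosis and of DNA replication both mark dividing cells. Of 27 mitosis genes, 7 were higher (Cdc20, Plk1, Aurka, Cenpa, Kif20a, Tpx2 and Ube2c), none was lower, and the median was 0.18. Cdc20, which activates the anaphase ligase, had 2333, 2673, 2302, 2306 and 2330.2 normalised counts at 150 nM, against 1639.6, 1609.6, 1757 and 1969.9 at 50 nM. The groups of Cdc20 did not overlap (0.46 ± 0.08, limma adjusted p = 0.000321). Mki67 (0.03), Top2a (-0.01), Cdk1 (-0.03) and Ccna2 (-0.01), which are present through more of the cycle, did not pass. Of 23 replication genes, 3 were lower, among them Prim1 (-0.33) and Mcm6 (-0.23), and none was higher, beside 4.1% lower of all genes tested. The median was -0.04. The replication count was 5 with the stricter filter and with DESeq2 and 6 in the 9 scrambled libraries alone, and 1 member was higher without 50 nM replicate 4 and without both libraries that stood apart. The mitosis count was 3 without 50 nM replicate 1, 4 without 50 nM replicate 2 and 14 in the 9 scrambled libraries alone. Ube2c lost its call in 11 of 21 alternatives, including upper quartile, the replicate block and edgeR, and Kif20a in 7.

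**Figure D3:**
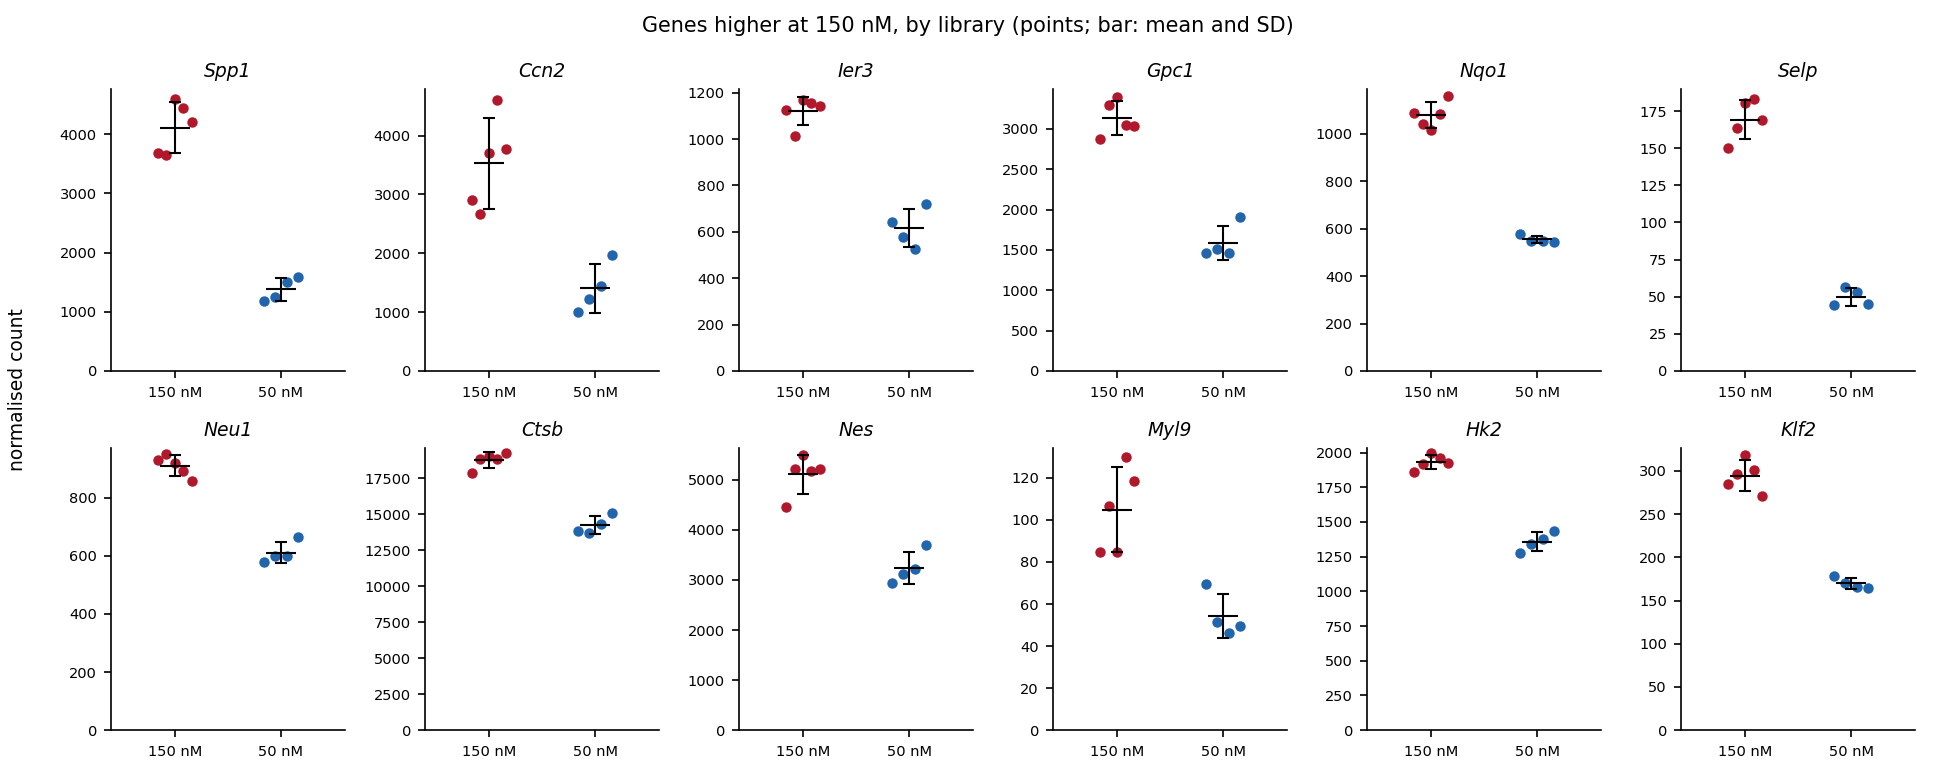
Normalised count (vertical axes, from 0) of 12 genes in each of the 5 libraries at 150 nM (red) and the 4 at 50 nM (blue); the black bar is the mean with its SD. For each of the 12 genes every 150 nM library lies above every 50 nM library.

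The 10 largest relative rises were mostly in genes with few counts. They were taken only among genes whose doses did not overlap and whose higher group averaged at least 10 counts. The lack of overlap in them was thus set by the choice. Pgm5 (chromosome 19, 24683016 to 24861855), a phosphoglucomutase relative found at cell-matrix junctions, had 13.5, 14.7, 16.5, 23.7 and 13.3 normalised counts at 150 nM, against 1.09, 0.74, 2.36 and 2.36 at 50 nM. Each 50 nM value stands for 1 to 3 reads, and the difference was 2.74 ± 0.32 (limma adjusted p = 3.45e-06). Selp (P-selectin; chromosome 1, 164115264 to 164150026), an adhesion molecule known from endothelium and platelets, had 150.0, 164, 181, 183 and 169 at 150 nM, against 44.5, 56.7, 53.4 and 44.9 at 50 nM. Its groups lay far apart at a level well above single reads (1.75 ± 0.23, limma adjusted p = 1.71e-05). Ccbe1, a secreted protein needed for lymphatic vessels, averaged 61.0 ± 13.5 at 150 nM and 14.3 ± 6.34 at 50 nM (2.09 ± 0.36). Skeletal actin Acta1 (2.03), the Wnt ligand Wnt7a (2.00), the R-spondin receptor Lgr6 (1.81), Hs3st1 (1.74), Sparcl1 (1.73) and Ckb (1.71) averaged between 13.2 and 27.5 counts at 150 nM and between 3.29 and 7.05 at 50 nM. Ptges, prostaglandin E synthase, was 12.8 ± 3.26 at 150 nM and 4.11 ± 3.95 at 50 nM, and lost its call without 50 nM replicate 1 or 2 and with the replicate block. Ckb lost its call without both libraries that stood apart, Sparcl1 with the replicate block, and Wnt7a, Lgr6 and Hs3st1 with a pseudocount of 0.1.

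Some markers of cell types other than fibroblasts were higher as well. Of 9 macrophage and leukocyte markers 4 were tested, and Cd68 (112 ± 12.3 normalised counts at 150 nM and 51.5 ± 7.499 at 50 nM, 1.11 ± 0.17) and Cd14 (319 ± 23.7 at 150 nM and 249.8 ± 25.4 at 50 nM, 0.35 ± 0.09) were higher. The summed level of these markers was 417 to 500.3 at 150 nM and 294 to 365 at 50 nM. The defining markers Ptprc, Adgre1 and Itgam were not among the genes tested, and Lyz2 was near 1 count in both doses. Of 8 endothelial markers 6 were tested, and Vwf (90.3 ± 10.4 at 150 nM and 38.2 ± 3.95 at 50 nM, 1.22 ± 0.20) and Erg (2.78 ± 1.77 at 150 nM and 0.295 ± 0.590 at 50 nM) were higher. Pecam1 (9.84 ± 4.20 at 150 nM and 5.21 ± 0.832 at 50 nM), Cdh5 and Tek did not pass. Of the 6 tested, 2 had negative differences, the lowest at -0.98. In 5 alternatives, among them edgeR, DESeq2 and voom, 1 endothelial marker was called lower. The summed level of the endothelial markers was 131 to 149.0 at 150 nM and 85.4 to 107 at 50 nM. Of 8 skeletal muscle markers 3 were tested, and Tnnt2 (258 ± 27.3 at 150 nM and 159 ± 24.5 at 50 nM) and Des (201 ± 28.5 at 150 nM and 142 ± 25.5 at 50 nM) were higher. Myod1 was not among the genes tested. Nes (nestin), on the neural list but also made by cultured mesenchymal cells, had 4452, 5220.3, 5497, 5172 and 5210.1 at 150 nM, against 2937, 3123, 3228 and 3693 at 50 nM. No library of Nes crossed over (0.66 ± 0.08, limma adjusted p = 8.63e-06), and Sox10 was not among the genes tested. Of the fibroblast markers, Prrx1 (-0.32) and Pdgfrb (-0.25) were lower and none was higher. Of 5 adipocyte markers only Pparg (0.28) was higher, and no epithelial (6 tested), chondrocyte and osteoblast (5 tested) or erythroid (1 tested) marker passed. Some of these calls depended on single libraries or on the fit. Cd14 lost its call without 50 nM replicate 2 or 3, Des without 50 nM replicate 3 and with the replicate block, and Erg with a pseudocount of 0.1, with the replicate block, with edgeR and without any of 50 nM replicates 1 to 3 and 150 nM replicates 2 to 4. Pparg lost its call without 50 nM replicate 1 or 2, without 150 nM replicate 1, 3 or 5, without both libraries that stood apart and with the replicate block. Without 50 nM replicate 4, 1 fibroblast and 1 epithelial marker were called higher, and 1 fibroblast marker was without both libraries that stood apart. The part of such cells in the differences above was not tested.

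In 3 lists that bear on the handling of transfected RNA, 1 of 17, 2 of 14 and 2 of 23 genes passed, beside 8.85% of all genes tested. Of 17 genes of the RNA interference machinery, only Tarbp2, the Dicer partner TRBP, passed, with 920.0, 932, 893, 951 and 963 normalised counts at 150 nM, against 702, 725, 718 and 757 at 50 nM. The groups of Tarbp2 did not overlap (0.36 ± 0.06, limma adjusted p = 0.000665). The Argonaute genes Ago1 (0.01), Ago2 (0.09), Ago3 (-0.11) and Ago4 (-0.24), and Dicer1 (-0.06), did not pass, and the median was -0.07. Of 14 targets of the let-7 microRNA, a family loaded on Argonaute proteins, Hmga2 (5622 ± 266 at 150 nM and 4179 ± 152 at 50 nM, 0.43 ± 0.11) and Hmga1 (0.31 ± 0.08) were higher and none was lower, with a median of 0.06. Hmga1 lost its call without 50 nM replicate 1, 2 or 3 or 150 nM replicate 3. Of 23 endocytosis and endosomal escape genes, Ap2a1 (0.25) was higher and Lgals8, a lectin that marks broken endosomes, was lower (1519 ± 75.2 at 150 nM and 1872 ± 181 at 50 nM, -0.30 ± 0.07). Lgals8 lost its call without 50 nM replicate 1 or 3, and Ap2a1 without any of 50 nM replicates 1, 2 and 3 and 150 nM replicates 2, 3 and 4. The count of lower members in that list was 3 without 50 nM replicate 4, 4 without 150 nM replicate 1 and 5 without both libraries that stood apart.

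In the COPII, ribosomal, heat shock and apoptosis lists, 1 of 17, 0 of 25, 1 of 17 and 2 of 20 genes passed, beside 8.85% of all genes tested. Of 17 COPII genes only Sar1b, the GTPase that starts coat assembly, passed (-0.29 ± 0.09). Sar1b lost its call without any single library but 50 nM replicate 4 and 150 nM replicate 1, and 2 genes of the list were lower without both libraries that stood apart. Sec24a (-0.06), Sec24b (0.13), Sec24c (0.09) and Sec24d (0.12) did not pass, each with overlapping libraries. Sec24c averaged 2795 ± 95.1 at 150 nM and 2635 ± 88.7 at 50 nM. None of 25 cytosolic ribosomal protein genes passed, and their median was 0.002, while 22 of the 25 passed as higher in the triple against the Sec24B knockdown. Of 17 heat shock genes only Chordc1 (-0.34) passed, and of 20 apoptosis genes Bok (887 ± 58.6 at 150 nM and 554 ± 93.5 at 50 nM, 0.69 ± 0.10) and Bcl2l1 (0.28 ± 0.07) were higher. Chordc1 lost its call without any of 50 nM replicates 1 to 3 and 150 nM replicates 2, 4 and 5. Without 50 nM replicate 4, and without both libraries that stood apart, 1 heat shock gene was higher and 1 apoptosis gene lower.

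**Figure D4:**
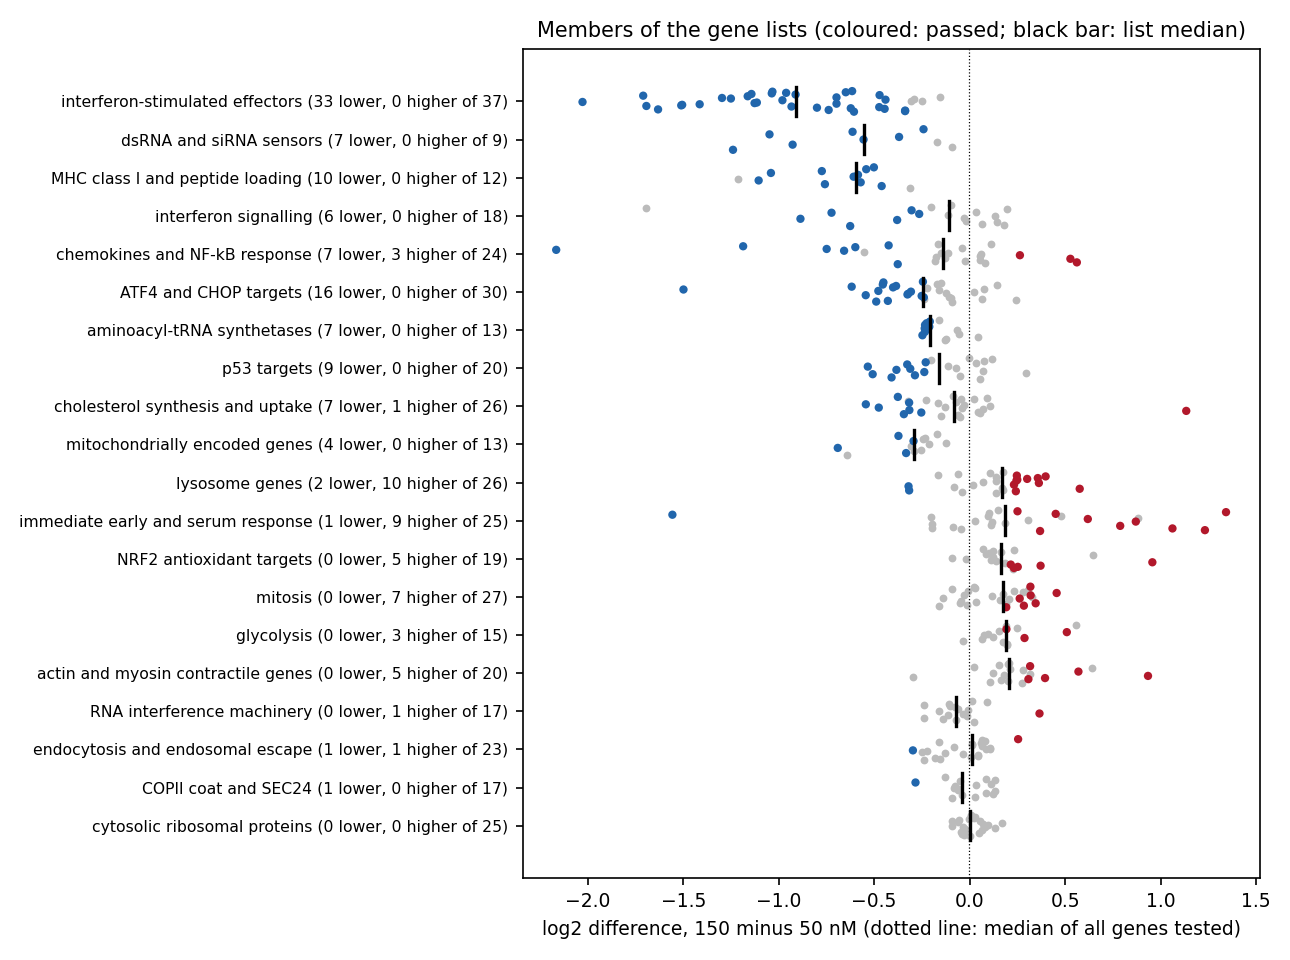
Log2 difference, 150 minus 50 nM (horizontal axis), of each tested member of 20 gene lists (rows); blue and red points passed as lower and higher, grey points did not pass, and black bars are list medians. The interferon-stimulated effectors have the lowest median of these lists, -0.91, and the dotted line is the median of all genes tested.

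Levels in the knockdown libraries are set beside those of the scrambled doses. Contrasts of a knockdown with its control share these scrambled libraries, so only levels are given for them, and the triple knockdown was set against the Sec24B knockdown, a contrast that holds no scrambled library. For the SEC24 siRNAs the protocol text states 50 nM, and whether each siRNA or their sum is meant is not given. Oas2 had 626.6, 503.9, 426.9, 488 and 494.5 normalised counts in the triple knockdown, against 1541, 2087, 1888, 1789.8 and 1765 in the Sec24B knockdown. These groups did not overlap either (-1.84, limma adjusted p = 6e-13). Ifit3 was 3849.5 ± 2019 in the triple knockdown and 8387 ± 463 in the Sec24B knockdown (SD, n = 5 each). Replicate 1 of the triple knockdown, at 7449, stood apart from its other libraries, which lay between 2769 and 3208. This spread enters the standard error of Ifit3 given above.

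Over all genes, 3095 were higher (15.8%) and 3185 lower (16.2%) in the triple than in the Sec24B knockdown. Of the 805 genes lower at 150 nM, 507 (63.0%) were also lower in the triple knockdown and 81 (10.1%) were higher, and the 507 are 15.9% of all genes lower in the triple knockdown. Of the 932 genes higher at 150 nM, 392 (42.1%) were also higher there and 93 (9.98%) lower, and the 392 are 12.7% of all genes higher there. Without triple knockdown replicate 1 these shares were 63.6% for the lower and 50.5% for the higher genes. All 37 interferon-stimulated effectors were lower in the triple than in the Sec24B knockdown, with a median of -1.13, and all 37 were lower without triple knockdown replicate 1. Their summed level was 54062.5 to 85666 in the triple knockdown and 101284 to 113325 in the Sec24B knockdown. Since the triple knockdown differs from the Sec24B knockdown in its targets as well as in its siRNAs, target and dose cannot be told apart in it.

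Of the 30 ATF4 and CHOP targets, 25 were higher and 2 lower in the triple than in the Sec24B knockdown, with a median of 0.61, against 16 lower and none higher at 150 nM. Chac1 averaged 1790.2 ± 244 in the triple knockdown and 811 ± 36.0 in the Sec24B knockdown, where the scrambled doses had 441 ± 50.2 at 150 nM and 676 ± 61.6 at 50 nM. All 27 mitosis genes were lower in the triple than in the Sec24B knockdown, against 7 higher and none lower at 150 nM. Of the 26 cholesterol genes 25 were lower there, with a median of -1.12, against 7 lower and 1 higher at 150 nM with a list median of -0.08. Spp1 averaged 1268 ± 363 in the triple knockdown and 603 ± 46.5 in the Sec24B knockdown, and the scrambled libraries had 4115 ± 436 at 150 nM and 1382 ± 195 at 50 nM. Nes averaged 3059 ± 403 in the triple knockdown and 2775 ± 94.1 in the Sec24B knockdown, both below the 5110.3 ± 390.3 of the 150 nM libraries.

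**Figure D5:**
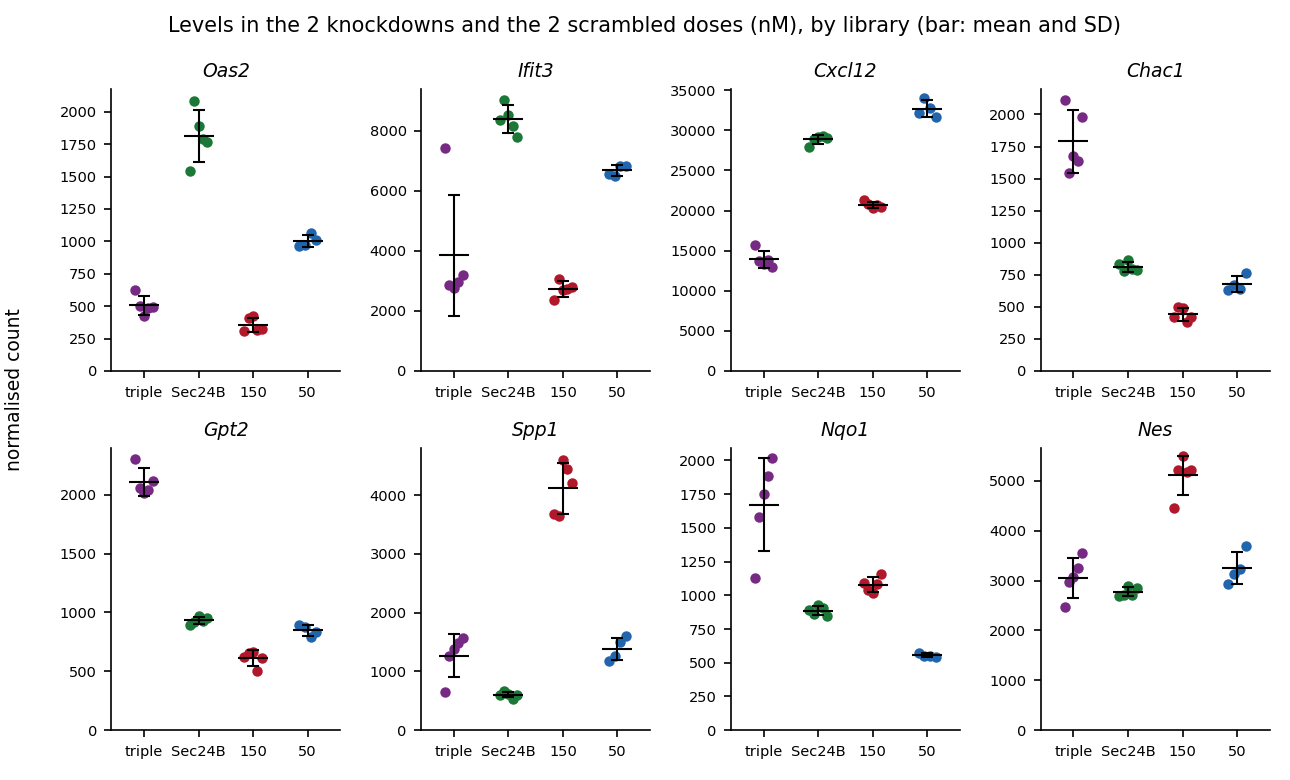
Normalised count (vertical axes, from 0) of 8 genes by library in the triple knockdown, the Sec24B knockdown and the scrambled siRNA at 150 and 50 nM; the black bar is the mean with its SD. Oas2, Ifit3 and Cxcl12 are lower at 150 than at 50 nM and lower in the triple than in the Sec24B knockdown, while Chac1 and Gpt2 are lower at 150 than at 50 nM and higher in the triple knockdown.

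The authors' deposited table holds its own test of the same doses. Of 14764 genes with an adjusted p in the authors' deposited table, 2195 passed 0.05, 1192 higher and 1003 lower at 150 nM. Of the genes that passed in limma, 1664 passed in the authors' deposited table in the same direction, which is 95.8% of the limma calls and 75.8% of the authors' calls.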

How the data were processed

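RNA of 19 libraries was extracted with TRIzol and reverse transcribed, per the labels' protocols. Per the submitters' processing notes the tools were TopHat2 2.0.8, Trimmomatic 0.27, Partek 6.6 and FastQC 0.10.1, and the builds listed are the human hg19 and GRCh37. The deposited table carries mouse IDs, of which GENCODE M21 (GRCm38) holds 19666 of 19716, 99.0% of them with identical start and end, so positions are given in GRCm38. The counter, the strandedness and the treatment of reads mapping to several places are not given in the sources used here, so overlapping, antisense and near-identical genes cannot be told apart.

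The deposited signal values are normalised counts, which the authors made by dividing the reads of each library by 1 factor. Whole reads were recovered for 100% of values within 0.0055. The authors' deposited table also holds log2 fold changes and p-values of their own test, used only for the counts given from it. Because the values were scaled, limma 3.58.1 (R 4.3.3) was used in place of a count model, on log2 of the normalised count plus a pseudocount of 1. The fit took 4 group means over all 19 libraries and kept genes that reached 1 normalised count in 4 or more libraries, with Benjamini-Hochberg adjustment over all genes tested and a threshold of 0.05. The p-values and standard errors therefore hold the spread within the knockdowns as well as within the scrambled doses. The fit was tested on simulated data. Replicate pairs differed by more than sampling noise (chi-square per degree of freedom 1.84 or more among the scrambled libraries), so none was merged. Depth differed between libraries, and genes with a few counts rest on few reads.

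Alternatives were other pseudocounts, filters and scalings, a fit on the 9 scrambled libraries, a replicate block, edgeR 4.0.16, DESeq2 1.42.0 and voom on the recovered reads, and leaving out each library. Leaving out both libraries that stood apart, and triple knockdown replicate 1, was chosen after seeing the data. The members and the gene lists were chosen with earlier results of these data known. Named genes were the 4 SEC24 genes, the 10 largest rises and falls (higher group averaging 10 or more, no overlap between groups), the 5 smallest adjusted p-values and the 5 largest differences in mean count per direction, and up to 3 members per list. Other list members named are examples chosen after their values were seen. Promoter windows were RefSeq's, and figures were drawn with matplotlib 3.10.9. Results of some genes are not reported here.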

Additional observations from a re-analysis of the deposited data

Results flagged for a closer look

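Over the named genes and 4 library measures, 268 groups of 4 or 5 libraries were examined for a single library far from the others, and 20 had one, each in a named gene. Chance flags about 1 in 20 groups. Of the 20, 9 were in 50 nM replicate 4, 6 in 150 nM replicate 1, 2 in 150 nM replicate 2, and 1 each in 150 nM replicate 4, 50 nM replicate 1 and 50 nM replicate 3.

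At 150 nM, replicate 1 was low for Oasl1 (3.85 normalised counts), Ctsb (17880.2) and Hyou1 (1697.66), and high for Tlr3 (330.69), Lgals8 (1648.63) and Rrm2b (243.21). Replicate 2 was high for Cdc20 (2673.19) and Bcl2l1 (1949.2), and replicate 4 was high for Wnt7a (29.37).

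At 50 nM, replicate 4 was low for Ckb (3.54), Tlr3 (409.8) and Mdm2 (7764.98). It was high for Gpc1 (1907.29), Tap1 (2361.97), Tgfb1 (722.76), Rpl8 (33896.7), Bok (693.24) and Erg (1.18, with 0 in the other libraries of the dose). Replicate 3 was low for Srxn1 (876.32) and replicate 1 for Pparg (173.84).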

How the results depend on the processing

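No result turned its direction under any of the 21 alternatives, and 0 of the 1737 genes that passed had the opposite sign in any alternative over all genes. The number that passed was 1681 and 1750 with pseudocounts of 0.1 and 5, 1738 without a filter, 1922 with the stricter filter, 1714 and 1724 with rescaling by TMM and upper quartile, 2554 in the 9 scrambled libraries alone, and 1738, 2177 and 1719 with edgeR, DESeq2 and voom. Leaving out 1 library gave 899 to 2174 genes, 491 to 1127 of them higher and 408 to 1047 lower, with fewer samples in each such fit. Without both libraries that stood apart 2445 genes passed, 1204 higher and 1241 lower. The replicate numbers did not pair the samples: same-numbered libraries had correlations of 0.34, -0.24, 0.08 and -0.03, and with the replicate block 1534 genes passed, of which 1250 were among the 1737. Of 119 named genes that passed, 88 passed in every alternative and 31 lost the call in at least 1. Depth limits genes of a few counts, such as Ifnb1 and Erg.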
